A study of Mus musculus with 12 samples.

Results

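The collagen family was followed here through all genes whose symbol has the form of a collagen alpha chain, such as Col1a1. The array carried 44 such genes among 24704 with a symbol, each with 1 probe set. A gene was tested when 3 or more of the 12 arrays had its signal above their own median. This held for 32 of the 44 collagen genes (72.7%) and for 13737 of all 24704 genes (55.6%), and the other 12 collagen genes are called dim.

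The samples were ventricular myocytes taken from adult mice by enzymatic Langendorff perfusion and then cultured. Of 6 mice, 3 lacked the delta and gamma isoforms of CaMKII, a calcium- and calmodulin-activated kinase (double knockout, DKO), and the other 3 mice were wild type (WT). Cells of each mouse gave 1 untreated array and 1 array after 24 h in 100 nM isoprenaline (Iso), an agonist of beta-adrenergic receptors, so that 4 groups of 3 arrays resulted. The stated purpose was to relate phosphorylation of histone H3 at serine 28 under Iso to gene expression. The labels do not say how the alleles were removed or whether other cells were depleted, and the knockout was in place before the cells were isolated.

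Collagens are secreted or membrane-bound proteins built from 3 alpha chains wound into a triple helix. Fibrillar collagens form the cables of the interstitial matrix, type IV collagen forms the sheet of basement membranes, and further classes bind, anchor or space these structures. In the heart most interstitial collagen is made by fibroblasts, while myocytes and endothelial cells each rest on a basement membrane. Some trimers need chains of different genes, as in type I (Col1a1 with Col1a2), type IV (Col4a1 with Col4a2) and type VI (Col6a1, Col6a2 and Col6a3).

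Sequence upstream of the start is shown for the collagen genes with the smallest p-values in the genotype comparisons. RefSeq windows of 250 bases upstream of the annotated start (GRCm38.p6) were at hand for 35 of the 44 genes and for 26 of the 32 tested. In the windows below, read 5′ to 3′ on the strand of the gene, capitals mark matches on either strand to CCAAT, to the GC box GGGCGG, to the TATA box TATAAA, to TGACG (the core of a cAMP response element) and to CAGAC (a Smad-binding box). No matches overlap in these 3 windows.
Col8a1, chr16:57754738-57754987, minus strand: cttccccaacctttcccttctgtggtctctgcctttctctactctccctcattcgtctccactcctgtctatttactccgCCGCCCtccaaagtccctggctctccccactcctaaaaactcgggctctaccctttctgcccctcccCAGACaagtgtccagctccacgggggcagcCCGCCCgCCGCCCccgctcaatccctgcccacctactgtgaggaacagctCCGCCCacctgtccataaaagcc
Col1a2, chr6:4505368-4505617, plus strand: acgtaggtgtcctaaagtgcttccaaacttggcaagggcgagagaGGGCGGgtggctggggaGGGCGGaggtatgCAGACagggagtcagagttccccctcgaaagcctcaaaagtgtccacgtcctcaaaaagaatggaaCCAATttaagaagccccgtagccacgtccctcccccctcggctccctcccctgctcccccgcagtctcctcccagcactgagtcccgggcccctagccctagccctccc
Col3a1, chr1:45311288-45311537, plus strand: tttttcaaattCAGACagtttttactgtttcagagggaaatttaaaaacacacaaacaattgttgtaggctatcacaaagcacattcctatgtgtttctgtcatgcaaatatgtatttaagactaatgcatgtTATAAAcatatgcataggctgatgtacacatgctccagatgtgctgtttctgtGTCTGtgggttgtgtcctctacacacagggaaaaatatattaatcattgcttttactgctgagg
The window of Col8a1 held 4 GC boxes and 1 Smad box, and that of Col1a2 held 2 GC boxes, 1 CCAAT and 1 Smad box. The Col3a1 window, with a GC content of 35.2% the poorest in G and C of the collagen windows, held 1 TATA box and 2 Smad boxes. None of these windows held TGACG.

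Across 38 windows of the 35 genes, 22 (57.9%) held the GC box, against 32.7% of 32851 windows of all genes. CCAAT was found in 34.2% against 33.8%, TATAAA in 13.2% against 12.4%, CAGAC in 44.7% against 42.2% and TGACG in 10.5% against 17.8%. The median GC content was 59.0% in collagen windows and 52.4% in all windows. These matches are descriptions of letters, not of bound factors.

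One array stood apart and enters several results below. Untreated DKO array 3 correlated with the other arrays at a median of 0.956 across genes, against 0.984 to 0.988 for the others. It gave the highest of the 12 values for 10 of the 32 collagen genes, where each other array did so for 0 to 5. Its mean over 11 endothelial markers was 6.75 on the log2 scale, above the 5.96 to 6.47 of the other arrays. It was the highest array for Cdh5, Kdr, Tie1, Flt1, Egfl7 and Eng, but not for Pecam1, Tek, Emcn, Vwf and Cldn5. By group the endothelial mean was 5.96 to 6.26 in untreated WT and 6.17 to 6.47 in WT with Iso. In DKO it was 6.25 to 6.75 untreated and 6.05 to 6.28 with Iso. The median Iso difference of the 11 markers was 0.23 in WT and -0.26 in DKO, and 0 of them passed. Untreated DKO array 3 enters the DKO value. The part of endothelial RNA in the collagen values of this or any other array was not tested. The mean of 10 ventricular myocyte markers was 12.05 to 12.56 on all arrays, so the labelled cell type is present. It was lowest on untreated DKO array 3. By group this mean was 12.14 to 12.25 in untreated WT and 12.05 to 12.28 in untreated DKO. It lay higher on all arrays with Iso, at 12.32 to 12.45 in WT and 12.35 to 12.56 in DKO. The part of this shift in the Iso differences of collagen genes was not tested. Of the targeted genes, Camk2g lay at 3.57 to 4.20 on DKO arrays and at 4.78 to 5.80 on WT arrays (averaged difference -1.42 ± 0.14, limma adjusted p = 0.000398). Camk2d lay at 7.36 to 7.98 and at 7.94 to 8.42 (-0.32 ± 0.12, adjusted p = 0.326). A probe set outside the deleted part of a gene checks nothing, and the exons these probe sets cover are not known here.

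Markers of other cells were present too. The mean over 9 cardiac fibroblast markers was 5.09 to 5.31 in untreated WT, 5.04 to 5.30 in WT with Iso, 5.10 to 5.25 in untreated DKO and 4.97 to 5.17 in DKO with Iso, and 8 of the 9 were above the filter. Tcf21, a defining fibroblast factor, was dim, Pdgfra was above the array median on 6 of 12 arrays, and the others were above it on all 12. Medians over the arrays were 10.64 for Dcn, 7.06 for Dpt and 6.47 for Gsn. They were only 3.32 to 4.31 for Pdgfra, Thy1, Ddr2, Pi16 and Lum. Over all arrays the means were 4.96 to 5.22 for 10 pericyte and smooth muscle markers and 3.71 to 4.42 for 6 mesothelial markers. The mesothelial mean was 4.07 to 4.42 in WT with Iso, above the other groups. It was 3.88 to 3.92 in untreated WT, 3.87 to 4.05 in untreated DKO and 3.71 to 3.96 in DKO with Iso. Its markers differed, with Upk1b, Msln and Krt8 highest on a WT array with Iso, and Upk3b, Wt1 and Krt19 on an untreated DKO array. For 7 macrophage and leukocyte markers the means were 4.27 to 4.43 in DKO with Iso and 4.55 to 4.80 in the other groups. These markers differed as well. Cd14 was 5.84 to 6.35 in DKO with Iso and 5.95 to 6.38 in untreated DKO. It was 6.06 to 6.51 in untreated WT and 6.94 to 7.10 in WT with Iso. Of the 6 markers above the filter, 1 passed for DKO against WT with Iso. Ptprc was dim, as were both Schwann cell markers measured. The part of any of these cells in the collagen values was not tested. In bulk RNA of this kind, fewer cells of a type and less RNA per cell cannot be told apart.

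Members of every class were above the filter. Of the fibrillar genes 10 of 11 were tested, of the basement membrane genes 3 of 6, of the beaded filament and anchoring genes 5 of 8, of the fibril-associated genes 5 of 9 and of the short-chain network genes 2 of 3. All of the multiplexins (2 of 2) and of the transmembrane collagens (4 of 4), and Col26a1, which falls in no other class, were tested. The dim genes were Col4a3, Col4a4, Col4a6, Col6a4, Col6a5, Col10a1, Col11a1, Col14a1, Col19a1, Col20a1, Col22a1 and Col28a1.

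At the edge of the filter, Col8a2 was above the median on 3 arrays, Col25a1 on 6 and Col6a6 and Col9a3 on 7, while Col22a1 and Col28a1 were above it on 1. Col9a3 was above it on 0 untreated WT arrays, Col25a1 on 0 WT arrays with Iso, and Col8a2 on 0 untreated WT and 0 Iso-treated DKO arrays. Of the 32 genes, 21 were above the median on all 12 arrays. Signals of the 32 ran from 3.04 to 6.23, with array medians at 3.31, so that the family lay low on a scale that reached 13.8.

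Genes next to each other in the genome did not always pass together. Among 8 neighbouring collagen pairs in the GRCm38.p6 gene table, Col4a1 with Col4a2, Col3a1 with Col5a2 and Col6a1 with Col6a2 were above the filter as pairs. Col4a5 was above it and its neighbour Col4a6 was not, Col4a3 and Col4a4 were both dim, Col6a6 was above it and Col6a5 was not, and Col9a1 was above it and Col19a1 was not.

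**Figure D1:**
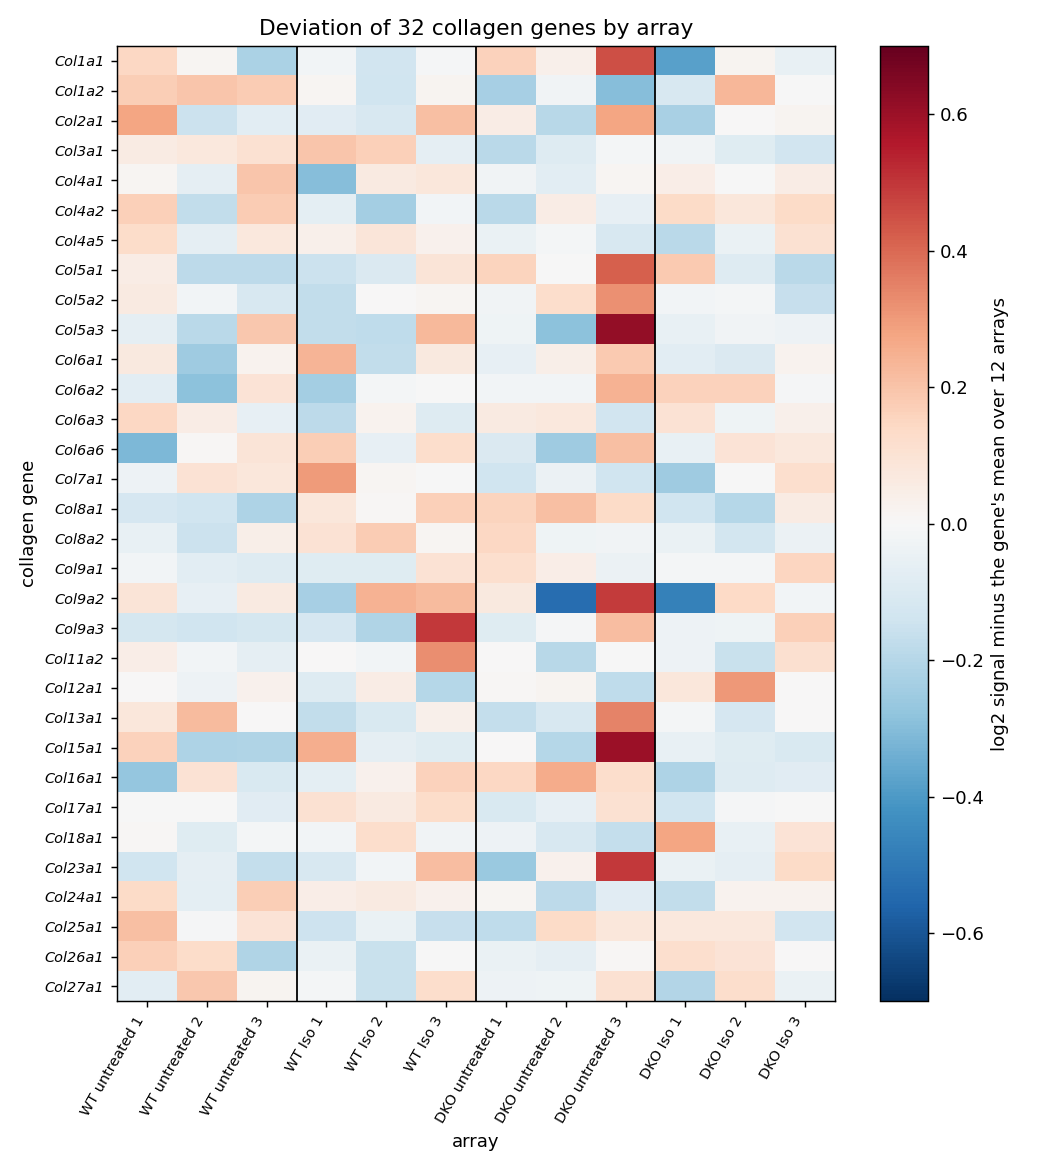
Deviation of each of the 32 tested collagen genes (rows) on each of the 12 arrays (columns), as log2 signal minus the mean of that gene over all arrays; black lines separate the 4 groups. The darkest red cells fall mostly in untreated DKO array 3, which holds the highest value of 10 genes, and no block of rows follows a group.

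No collagen gene passed the test in any comparison. By limma with Benjamini-Hochberg adjustment over 13737 genes, 0 of 32 reached an adjusted p under 0.05 for Iso in WT, where 0.0218% of all genes did. In DKO the Iso effect gave 0 as well, where 0.051% of all genes passed. The count was also 0 for the difference between these Iso effects (interaction; 0.0146% of all genes), for DKO against WT without Iso (0.204%) and with Iso (0.306%), for the Iso effect averaged over genotypes (0.124%) and for the genotype effect averaged over treatments (0.546%). Since the share of all genes called was under 1% throughout, a count of 0 among 32 sits at the background.

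At an unadjusted p under 0.05, limma gave 1 collagen gene for Iso in WT (3.12% against 6.7% of all genes). For Iso in DKO it gave 3 (9.38% against 18.4%). There were 3 for the interaction (9.38% against 10.1%) and 2 for DKO against WT without Iso (6.25% against 13.8%). With Iso it gave 0 for DKO against WT (7.91% of all genes), 0 for the averaged Iso effect (14.4%) and 1 for the averaged genotype effect (3.12% against 10.7%). All of these shares were at or under the background.

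The intervals bound how large a difference in array signal could have been missed. Many collagen probe sets lay close to the array median, where a difference in RNA may be understated, so its size is not bounded. No 95% interval of any of the 32 genes reached a 2-fold change, a log2 difference of 1, in any of the 7 comparisons. The bound farthest from 0 was 0.56 under Iso in WT mice, 0.68 under Iso in DKO mice, 0.92 in the interaction, 0.64 and 0.71 for DKO against WT without and with Iso, and 0.42 and 0.47 for the averaged Iso and genotype effects. Of all genes, 4.49% had an interval that reached 2-fold under Iso in WT, 11.6% under Iso in DKO and 24.9% in the interaction. The median SD within groups was 0.129 for the collagen genes and 0.207 for all genes tested.

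The median difference over the 32 genes was 0.01 under Iso in WT mice, -0.01 under Iso in DKO mice, -0.05 in the interaction, -0.01 and -0.02 for DKO against WT without and with Iso, and 0.00 and 0.01 for the averaged effects. Medians over all genes tested were between -0.01 and 0.01. Without untreated DKO array 3, 12 of the 32 genes changed the sign of their Iso difference in DKO and 7 that of their DKO difference without Iso. The number of collagen genes called was still 0 in each comparison without that array.

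**Figure D2:**
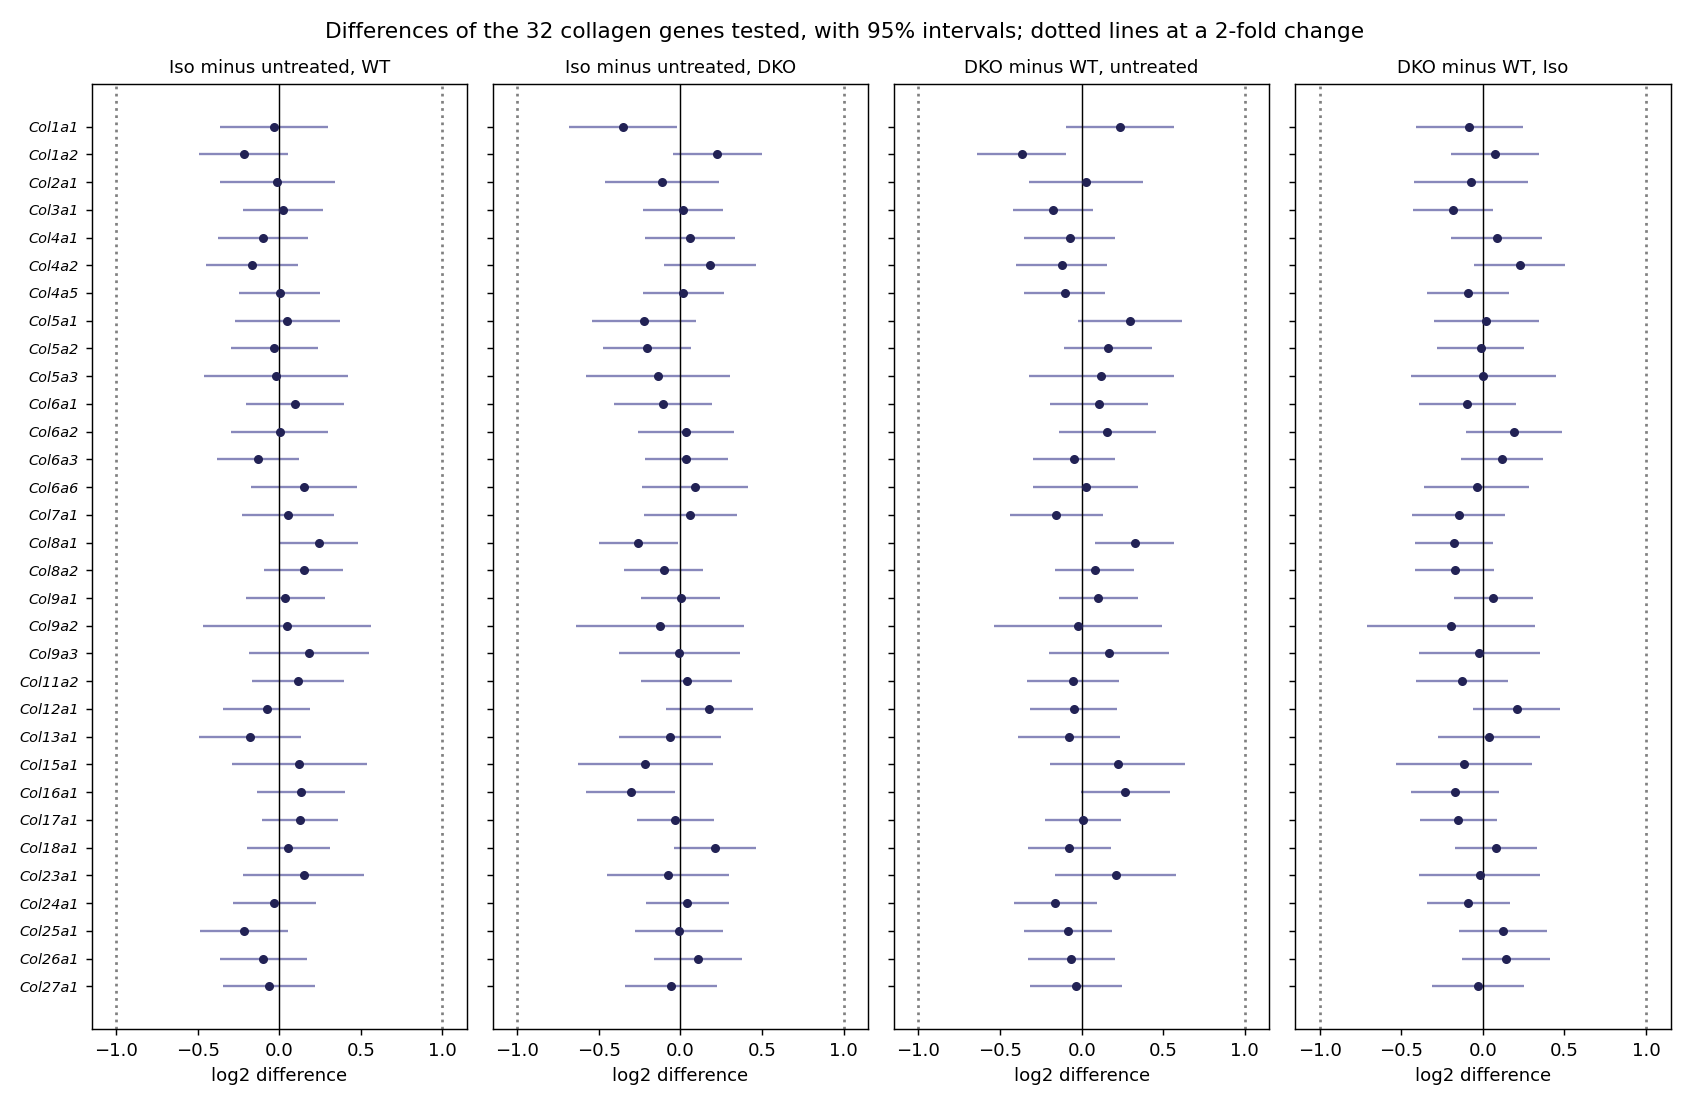
Log2 differences of the 32 tested collagen genes with 95% intervals of limma, in one panel for each comparison of single groups; the solid line marks 0 and dotted lines mark a 2-fold change. No interval reaches a dotted line, and the farthest bound of these panels is 0.71.

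Among fibrillar collagens, the chains of types I, III and V are those of the cardiac interstitium. Col1a1, the major chain of type I collagen, had log2 signals of 4.81, 4.68 and 4.44 in untreated WT, 4.64, 4.53 and 4.66 in WT with Iso, 4.82, 4.70 and 5.12 in untreated DKO, and 4.29, 4.69 and 4.61 in DKO with Iso. Untreated DKO array 3 was the highest of the 12, and the DKO groups did not overlap, though only by 4.70 against 4.69. The Iso difference in DKO was -0.35 ± 0.15 (SE; limma adjusted p = 0.243), and -0.23 (adjusted p = 0.503) without that array. In WT it was -0.03 ± 0.15.

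Col1a2, the second chain of type I collagen, gave 3.91, 3.93 and 3.91 in untreated WT, 3.75, 3.60 and 3.75 in WT with Iso, 3.50, 3.71 and 3.44 in untreated DKO, and 3.62, 3.97 and 3.74 in DKO with Iso. The untreated WT arrays lay close together and above all arrays of WT with Iso and of untreated DKO. DKO minus WT without Iso was -0.37 ± 0.13 (adjusted p = 0.235 by limma), and -0.31 (adjusted p = 0.351) without untreated DKO array 3. The Iso difference was -0.22 ± 0.13 in WT and 0.23 ± 0.13 in DKO, and the interaction was 0.44 ± 0.18 (adjusted p = 0.444).

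The chains of type I thus had untreated DKO differences of opposite sign, 0.24 for Col1a1 (95% interval -0.09 to 0.57) and -0.37 for Col1a2 (-0.64 to -0.10), and Iso differences in DKO of opposite sign as well. Neither passed. Without untreated DKO array 3 the first of these differences was 0.12 for Col1a1, and without Iso-treated DKO array 2 the Iso difference of Col1a2 in DKO was 0.13.

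Col3a1, which co-assembles with type I in elastic interstitial fibrils, read 3.96, 3.97 and 4.01 in untreated WT, 4.09, 4.07 and 3.84 in WT with Iso, 3.71, 3.81 and 3.88 in untreated DKO, and 3.88, 3.81 and 3.76 in DKO with Iso. The DKO values lay low, below all untreated WT arrays where untreated, with overlap under Iso. Col3a1 had the smallest p of the family for the genotype effect averaged over treatments, -0.18 ± 0.08 (adjusted p = 0.447 by limma). Its Iso difference was 0.02 in both genotypes, with 95% intervals of -0.22 to 0.26 in WT and -0.23 to 0.26 in DKO.

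Type V collagen sits in the core of fibrils and sets their diameter. Col5a1 had 3.79, 3.56 and 3.55 in untreated WT, 3.59, 3.64 and 3.83 in WT with Iso, 3.89, 3.74 and 4.16 in untreated DKO, and 3.92, 3.65 and 3.55 in DKO with Iso. Col5a2 had 3.44, 3.36 and 3.27 in untreated WT, 3.20, 3.38 and 3.39 in WT with Iso, 3.35, 3.50 and 3.69 in untreated DKO, and 3.36, 3.36 and 3.21 in DKO with Iso. For both chains untreated DKO array 3 was the highest of the 12, and no pair of groups separated. DKO minus WT without Iso was 0.30 ± 0.15 for Col5a1 (adjusted p = 0.395 by limma), and 0.18 without that array.

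The other fibrillar genes, Col2a1 and Col11a2 of cartilage, Col5a3, and the minor chains Col24a1 and Col27a1, had differences between -0.16 and 0.12 in all 7 comparisons. Of these, Col24a1 separated the Iso-treated groups, with DKO below WT by a difference of -0.09, or -0.02 without Iso-treated DKO array 1. These groups were apart only by 3.425 against 3.431. Col5a3 reached 5.41 on untreated DKO array 3, against 4.51 to 5.02 on the other arrays.

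**Figure D3:**
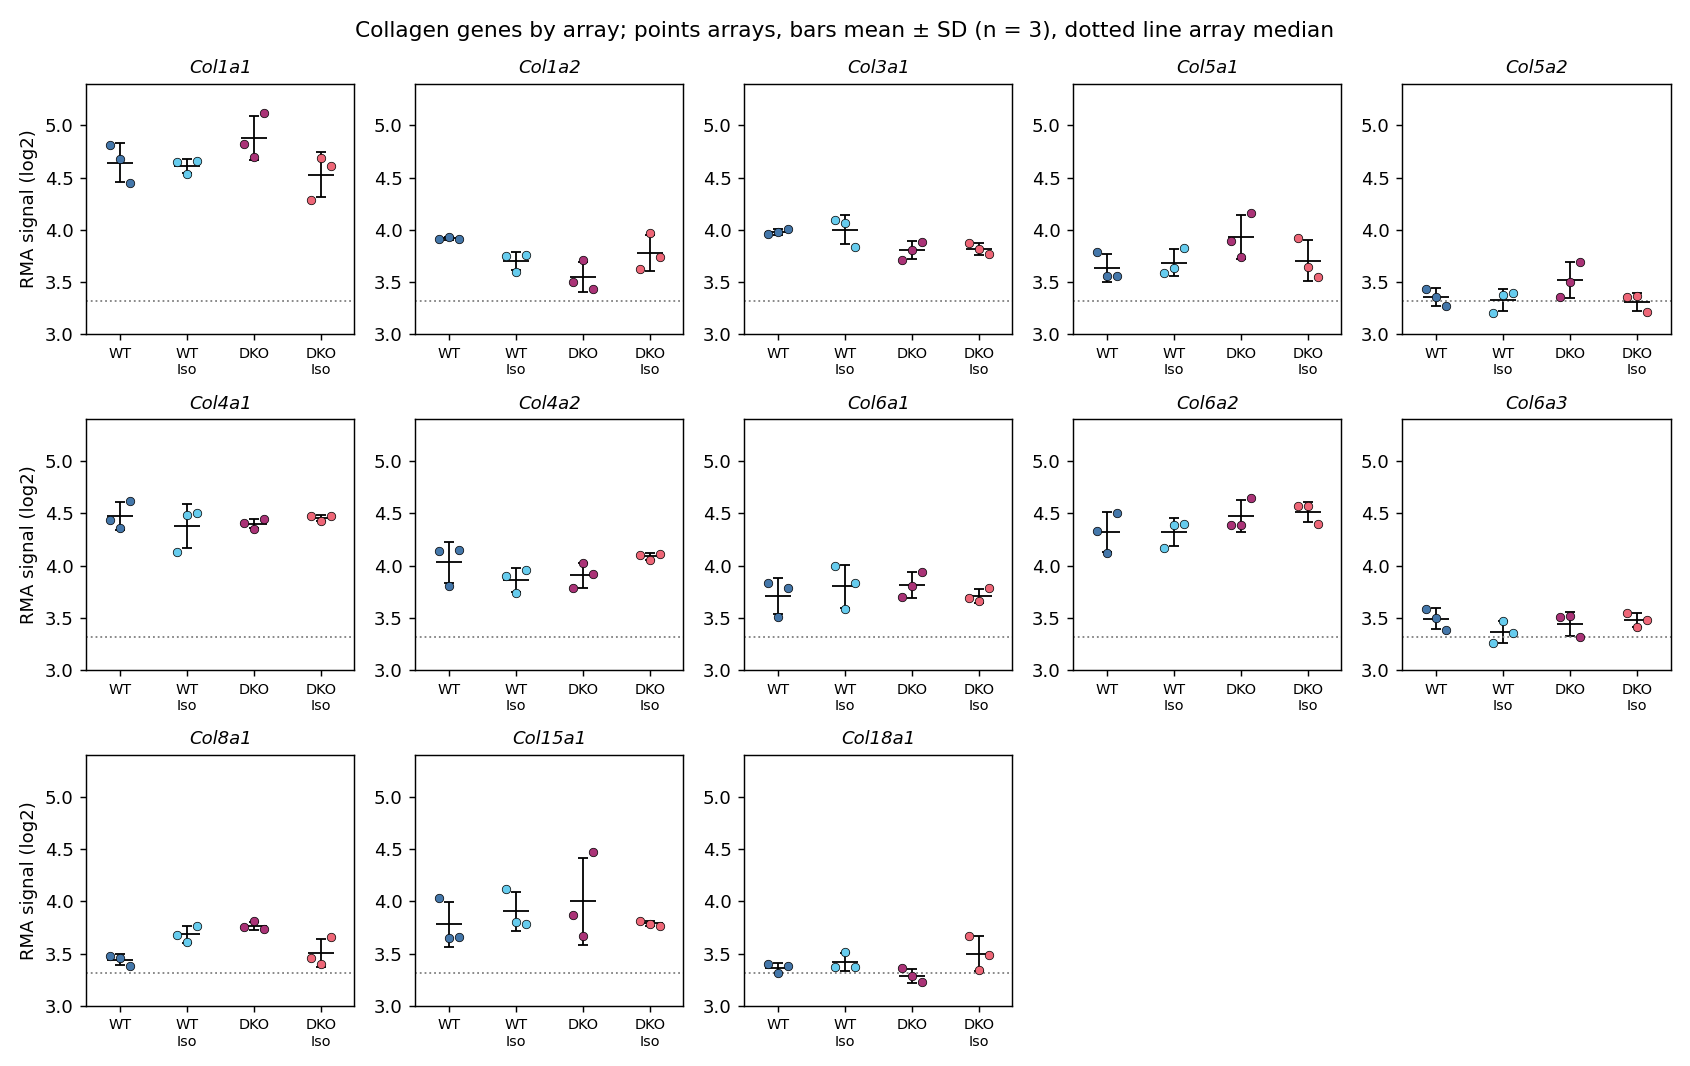
Log2 RMA signal of named collagen genes on each array, by group (points are single arrays, bars are the mean ± SD of 3 arrays, and the dotted line is the array median). Groups overlap in most panels, and Col1a2 shows 3 untreated WT arrays close together at 3.91 to 3.93.

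In the basement membrane class, Col4a1 and Col4a2 encode the ubiquitous type IV trimer, and Col4a5 a chain of the rarer trimer. Col4a1 measured 4.44, 4.36 and 4.62 in untreated WT, 4.13, 4.49 and 4.50 in WT with Iso, 4.40, 4.35 and 4.44 in untreated DKO, and 4.47, 4.43 and 4.48 in DKO with Iso. No groups separated, and its differences ran from -0.10 to 0.16. Col4a2 measured 4.14, 3.80 and 4.15 in untreated WT, 3.90, 3.73 and 3.95 in WT with Iso, 3.78, 4.03 and 3.92 in untreated DKO, and 4.10, 4.05 and 4.11 in DKO with Iso. The DKO arrays with Iso lay close together and above both untreated DKO and Iso-treated WT.

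For Col4a2, DKO minus WT with Iso was 0.23 ± 0.13, the smallest p of the family in that comparison (adjusted p = 0.737 by limma). Its partner Col4a1 had the same sign there, 0.08 ± 0.13, but -0.04 without Iso-treated WT array 1. The Iso differences of both were below 0 in WT (-0.10 and -0.17) and above 0 in DKO (0.06 and 0.18). Without Iso-treated WT array 1 the WT value of Col4a1 was 0.02. Col4a5 stayed between 3.43 and 3.75, with differences of at most 0.10 in size.

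Of the microfibrillar type VI collagen, which links the matrix to the cell surface, 3 obligate chains were tested. Col6a1 gave 3.83, 3.51 and 3.79 in untreated WT, 4.00, 3.59 and 3.83 in WT with Iso, 3.70, 3.80 and 3.94 in untreated DKO, and 3.69, 3.66 and 3.78 in DKO with Iso. Col6a2 gave 4.34, 4.12 and 4.50 in untreated WT, 4.17, 4.39 and 4.40 in WT with Iso, 4.39, 4.39 and 4.65 in untreated DKO, and 4.57, 4.57 and 4.40 in DKO with Iso. Col6a3 gave 3.59, 3.50 and 3.38 in untreated WT, 3.26, 3.47 and 3.36 in WT with Iso, 3.51, 3.52 and 3.31 in untreated DKO, and 3.55, 3.41 and 3.48 in DKO with Iso. All groups overlapped for these chains in the comparisons between single groups.

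The averaged genotype difference of Col6a2 was 0.17 ± 0.10 (adjusted p = 0.556 by limma). Those of Col6a1 and Col6a3 were 0.01 ± 0.10 and 0.04 ± 0.08. Col6a6, an alternative chain, and Col7a1, which forms anchoring fibrils, had differences between -0.15 and 0.15. Col7a1 lay below untreated WT on all 3 untreated DKO arrays, with a difference of -0.15, though the groups were apart only by 3.691 against 3.694.

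Short-chain type VIII collagen forms networks beneath endothelium and is made by vascular cells. Col8a1 gave 3.48, 3.46 and 3.38 in untreated WT, 3.68, 3.61 and 3.76 in WT with Iso, 3.75, 3.81 and 3.73 in untreated DKO, and 3.46, 3.40 and 3.66 in DKO with Iso. Untreated WT had the lowest mean, and it separated from WT with Iso and from untreated DKO, which in turn separated from DKO with Iso. The Iso difference was 0.24 ± 0.11 in WT (adjusted p = 0.742 by limma) and -0.26 ± 0.11 in DKO (adjusted p = 0.240).

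The interaction of Col8a1, -0.50 ± 0.16 (95% interval -0.84 to -0.16), had the smallest unadjusted p of the family in any comparison and an adjusted p of 0.392 by limma. DKO minus WT without Iso was 0.32 ± 0.11 (adjusted p = 0.237), and 0.34 without untreated DKO array 3. Its partner Col8a2 was dim on 9 of 12 arrays. Col8a2 passed the filter only through 2 WT arrays with Iso and 1 untreated DKO array. The filter thus partly set the signs of its differences, and they are no support for those of Col8a1. These differences had the same sign, 0.15 under Iso in WT, -0.10 under Iso in DKO and 0.08 for untreated DKO against WT. Without untreated DKO array 1 the latter pair were -0.05 and 0.02.

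Among fibril-associated collagens, which coat fibrils and connect them to other matrix, Col16a1 had the smallest p-values. Col16a1 read 3.13, 3.50 and 3.29 in untreated WT, 3.33, 3.43 and 3.56 in WT with Iso, 3.54, 3.66 and 3.52 in untreated DKO, and 3.18, 3.31 and 3.32 in DKO with Iso. The untreated DKO arrays lay above untreated WT and above DKO with Iso, and DKO with Iso lay below WT with Iso. The Iso difference was -0.31 ± 0.12 in DKO (adjusted p = 0.215 by limma) and 0.13 ± 0.12 in WT (0.05 without untreated WT array 1), and the interaction was -0.44 ± 0.18 (adjusted p = 0.444).

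Col12a1, a large fibril-bound collagen of load-bearing tissue, read 3.41, 3.37 and 3.44 in untreated WT, 3.32, 3.46 and 3.21 in WT with Iso, 3.42, 3.43 and 3.23 in untreated DKO, and 3.49, 3.71 and 3.41 in DKO with Iso. All of its groups overlapped, and DKO minus WT with Iso was 0.21 ± 0.12 (adjusted p = 0.754 by limma), or 0.12 without Iso-treated DKO array 2. The type IX chains Col9a1, Col9a2 and Col9a3 had differences between -0.19 and 0.18. Col9a2 was the most variable member, with a pooled SD of 0.333 within groups and values from 5.21 to 6.23.

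The multiplexins Col15a1 and Col18a1 carry the sequences of the fragments restin and endostatin and lie in the basement membranes of vessels and muscle. Col15a1 had 4.03, 3.65 and 3.66 in untreated WT, 4.12, 3.81 and 3.79 in WT with Iso, 3.87, 3.67 and 4.47 in untreated DKO, and 3.82, 3.79 and 3.76 in DKO with Iso. Apart from 4.47 on untreated DKO array 3, all values were between 3.65 and 4.12. DKO minus WT without Iso was 0.22 ± 0.19 with that array and -0.01 without it. Col18a1 had 3.40, 3.31 and 3.38 in untreated WT, 3.38, 3.51 and 3.37 in WT with Iso, 3.36, 3.28 and 3.22 in untreated DKO, and 3.67, 3.34 and 3.49 in DKO with Iso. Its groups overlapped, and the Iso difference averaged over genotypes was 0.13 ± 0.08 (adjusted p = 0.495 by limma).

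Transmembrane collagens span the cell membrane and are shed. Col25a1 had 3.52, 3.30 and 3.40 in untreated WT, 3.16, 3.26 and 3.14 in WT with Iso, 3.13, 3.44 and 3.39 in untreated DKO, and 3.38, 3.38 and 3.17 in DKO with Iso. The WT arrays with Iso lay below the untreated ones, and the Iso difference in WT was -0.22 ± 0.12 (adjusted p = 0.821 by limma) against -0.01 ± 0.12 in DKO. Col13a1, Col17a1 of hemidesmosomes, and Col23a1 had differences between -0.23 and 0.21. Col17a1 was above untreated WT on all 3 Iso-treated WT arrays, by 0.13. Col26a1 was above WT in DKO with Iso by 0.14, though the groups were apart only by 3.566 against 3.559.

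Groups did not overlap for 4 collagen genes under Iso in WT (12.5%, against 15.6% of all genes), namely Col1a2, Col8a1, Col17a1 and Col25a1. Under Iso in DKO this held for 5 (15.6% against 21.5%), Col1a1, Col4a2, Col8a1, Col8a2 and Col16a1. DKO and WT did not overlap for 6 genes without Iso (18.8% against 17%) and for 6 with Iso (18.8% against 17.6%). For the averaged effects all 6 arrays of one side lay beyond the other in 0 collagen genes, against 1.1% of all genes for Iso and 1.09% for genotype. These shares were near or under the background.

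Each mouse supplied both arrays of its pair, so the direction of the Iso difference can be counted over mice. In 4 of the 32 genes all 3 WT mice went one way and all 3 DKO mice the other (12.5%, against 4.86% of all genes). Col8a1 and Col6a1 were higher with Iso in 3 of 3 WT mice and in 0 of 3 DKO mice. Col1a2 and Col4a2 were higher with Iso in 0 of 3 WT mice and in 3 of 3 DKO mice.

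The differences for Col8a1 were 0.20, 0.15 and 0.38 in WT mice and -0.29, -0.41 and -0.08 in DKO mice. For Col1a2 they were -0.16, -0.33 and -0.16 in WT mice and 0.12, 0.25 and 0.30 in DKO mice. Those for Col4a2 were -0.24, -0.07 and -0.19 in WT mice and 0.32, 0.03 and 0.19 in DKO mice. Those for Col6a1 were 0.17, 0.08 and 0.04 in WT mice and -0.01, -0.15 and -0.16 in DKO mice. The smallest, 0.03 for Col4a2 and -0.01 for Col6a1, were well under the pooled SDs within groups of 0.13 and 0.15. The interaction test of limma passed for none of the 4, with adjusted p of 0.392 for Col8a1, 0.444 for Col1a2, 0.524 for Col4a2 and 0.730 for Col6a1.

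The Iso differences in WT and DKO, which share no arrays, had the same sign in 15 of 32 collagen genes (46.9%) and in 52.2% of all genes. Across the 32 genes they correlated at a Pearson r of -0.41 (Spearman -0.35), and across all 13737 genes at 0.06. This is across genes, which are not independent replicates and share the 12 arrays, and untreated DKO array 3 enters every DKO value.

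**Figure D4:**
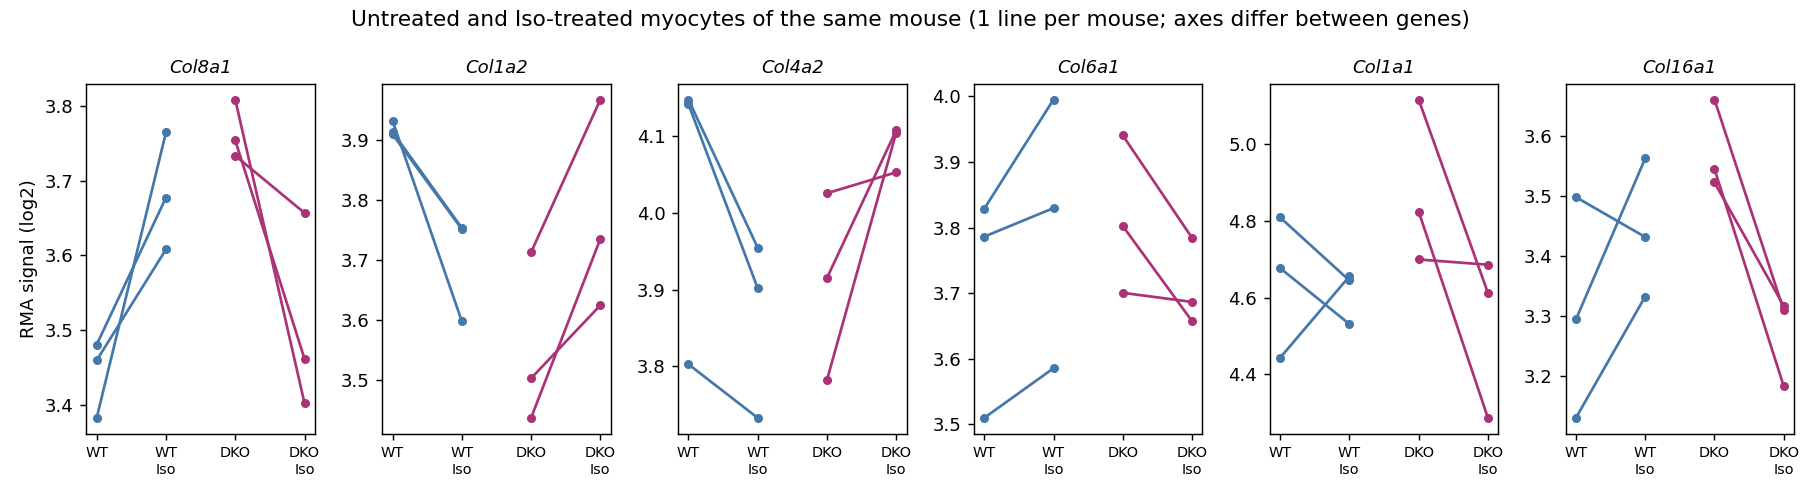
Log2 signal of Col8a1, Col1a2, Col4a2, Col6a1, Col1a1 and Col16a1 without and with Iso, with 1 line per mouse and axes that differ between genes. Lines of Col8a1 run up in 3 of 3 WT mice and down in 3 of 3 DKO mice, and lines of Col1a2 run the other way.

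Genes that make, process, cut or bind collagen were read from 7 lists with 97 genes, of which 93 were on the array and 80 above the filter. In them 4 genes passed in at least 1 of the 7 comparisons (5%, against 0.801% of all genes): P3h2, Gp6, Thbs1 and Timp1. By comparison these were 1 for Iso in DKO (0.051% of all genes called), 1 for DKO with Iso (0.306%) and 3 for the averaged genotype effect (0.546%). The lists were chosen with earlier results known, so these shares describe them only. No collagen chain passed beside them.

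Of 17 tested folding and modification genes, 1 passed. P3h2, a prolyl 3-hydroxylase that modifies collagen chains in the endoplasmic reticulum, read 4.17, 4.20 and 4.34 in untreated WT, 4.00, 3.85 and 4.31 in WT with Iso, 4.65, 5.60 and 4.48 in untreated DKO, and 5.68, 5.54 and 5.25 in DKO with Iso. All DKO arrays lay above all WT arrays. DKO with Iso was 2.71-fold above WT with Iso (log2 1.44 ± 0.24, adjusted p = 0.0278 by limma), and the averaged genotype difference was 1.05 ± 0.17 (2.08-fold, adjusted p = 0.0169). The first call was lost without any of the 3 untreated WT arrays, Iso-treated WT array 1 or 2, or any Iso-treated DKO array (adjusted p 0.052 to 0.165). Untreated WT arrays enter that call only through the variance shared by all groups, and the difference stayed at 1.44 without them. The second was lost without untreated WT array 1 or 2, Iso-treated WT array 2, or Iso-treated DKO array 1 or 2 (adjusted p 0.055 to 0.064).

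Serpinh1, the collagen chaperone HSP47, had group means of 4.21 ± 0.18 (SD) in untreated WT, 4.34 ± 0.01 in WT with Iso, 4.58 ± 0.54 in untreated DKO and 4.43 ± 0.13 in DKO with Iso, each of 3 arrays. Its untreated DKO mean held 5.20 on array 3 and 4.19 and 4.35 on the others. P4ha1, a catalytic chain of prolyl 4-hydroxylase, had means from 5.51 to 5.98. Neither passed in any comparison (lowest adjusted p 0.454 and 0.572 by limma).

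Of 7 tested collagen receptors, Gp6, the collagen receptor of platelets, passed. Gp6 read 3.56, 3.37 and 3.51 in untreated WT, 3.55, 3.76 and 3.36 in WT with Iso, 3.14, 2.94 and 2.89 in untreated DKO, and 3.79, 4.00 and 4.25 in DKO with Iso. The untreated DKO arrays were lowest, all below the array median, and the DKO arrays with Iso were highest. The Iso difference in DKO was 1.02 ± 0.15 (adjusted p = 0.0275 by limma), and in WT 0.08 ± 0.15. Taking the array median as the floor for the untreated arrays, DKO with Iso was at least 1.63-fold higher. With the mouse as a fixed block the call was lost (adjusted p = 0.0678 by limma), and with a random block it was kept (0.0237). Leaving out any untreated WT array, Iso-treated WT array 1 or untreated DKO array 1 also lost it. So did leaving out any Iso-treated DKO array (adjusted p 0.057 to 0.205 over these fits). WT arrays enter this call only through the variance shared by all groups, and the difference stayed at 1.02 without any of them.

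The interaction for Gp6 was 0.95 ± 0.21 and did not pass (adjusted p = 0.251). In the receptor list, the Iso difference in DKO was above 0 for 6 of 7 genes, against 50.9% of all genes, with a median of 0.51 against 0.01. Without untreated DKO array 3 it was above 0 for 6 of 7 as well, with a median of 0.25. Ddr2, the discoidin domain receptor of fibroblasts, did not pass in any comparison (differences between -0.33 and 0.41).

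Among 14 tested interstitial matrix partners, Thbs1 passed. Thbs1, the matricellular glycoprotein thrombospondin 1, read 5.50, 5.43 and 5.78 in untreated WT, 6.51, 6.63 and 5.76 in WT with Iso, 4.99, 4.97 and 4.56 in untreated DKO, and 5.15, 5.18 and 5.48 in DKO with Iso. Both DKO groups lay below their WT counterparts without overlap. The averaged genotype difference was -0.88 ± 0.15 (1.84-fold lower, adjusted p = 0.0230 by limma). It lost the call without any untreated WT array, Iso-treated WT array 1 or 2, or Iso-treated DKO array 1 or 2 (adjusted p 0.055 to 0.092). Sparc, which binds collagen, and Postn, periostin of activated fibroblasts, did not pass in any comparison (lowest adjusted p 0.274 and 0.487).

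Of 9 tested genes of collagen breakdown and its inhibition, Timp1 passed. Timp1, an inhibitor of matrix metalloproteinases, read 4.64, 4.79 and 4.87 in untreated WT, 4.64, 4.83 and 4.28 in WT with Iso, 3.61, 4.35 and 4.04 in untreated DKO, and 3.86, 3.99 and 4.08 in DKO with Iso. Both DKO groups lay below their WT counterparts. The averaged genotype difference was -0.69 ± 0.13 (1.61-fold lower, adjusted p = 0.0409 by limma). It lost the call without any single untreated WT or Iso-treated DKO array, Iso-treated WT array 1 or 2, or untreated DKO array 1 (adjusted p 0.071 to 0.127). Mmp2, gelatinase A, had an averaged genotype difference of -0.26 ± 0.12 (adjusted p = 0.453).

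The remaining lists held no call with all arrays. In procollagen processing and cross-linking, 0 of 11 tested genes passed. The smallest unadjusted p there belonged to Pcolce2, an enhancer of procollagen cleavage, with -0.52 ± 0.16 for DKO without Iso (adjusted p = 0.203 by limma). The lowest adjusted p, 0.138, belonged to the related enhancer Pcolce for Iso in DKO, at -0.54 ± 0.17, and that gene is named after its values were seen. Lox, the lysyl oxidase that cross-links fibrils, was dim on all arrays.

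Of 10 basement membrane partners 0 passed, with Lama4, the laminin alpha 4 chain of endothelium, at 0.45 ± 0.10 for the averaged genotype effect (adjusted p = 0.0675). In the TGF-beta axis 0 of 12 passed, with Tgfb1, its founding ligand, at -0.74 ± 0.21 for Iso in DKO (adjusted p = 0.113). For Tgfb1, untreated DKO array 3 was the highest of the 12, at 6.57, and the difference was -0.46 without it (adjusted p = 0.197). Without untreated DKO array 2 it was -0.97 and passed (adjusted p = 0.0315). Lama4 passed without untreated DKO array 1 or 3 (adjusted p 0.0197 and 0.0484).

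**Figure D5:**
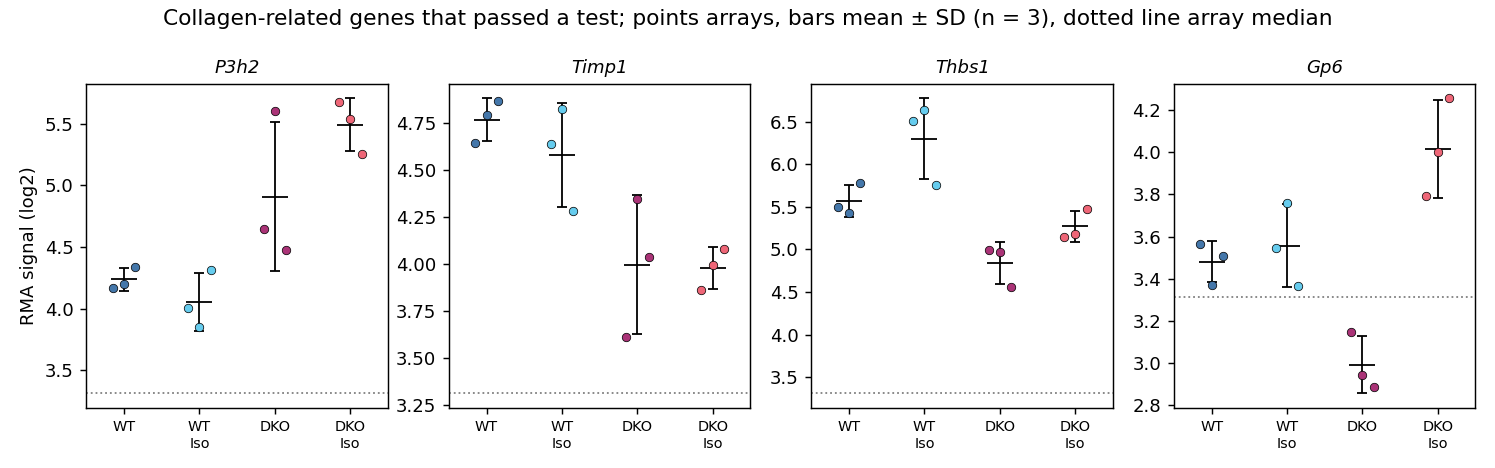
Log2 RMA signal of the 4 collagen-related genes that passed, by group (points are arrays, bars are the mean ± SD of 3 arrays, the dotted line is the array median); axes differ between genes. P3h2 is higher on all DKO arrays, and Thbs1 and Timp1 are lower in both DKO groups than in their WT counterparts.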

How the data were processed

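Expression was measured on Affymetrix arrays in 12 samples of 4 groups. The authors used RMA to summarise probe sets, per the submitters' processing notes, whose version is not stated there. Array type and build were not given in the sources used here. All deposited values are log2, from 2.25 to 13.8, and were used unchanged. RMA draws dim probe sets together, so differences of genes near the array median may be understated. Gene symbols came from the platform annotation, 24705 of 25428 probe sets having 1 symbol and 723 none. Of 24704 symbols, 1 had 2 probe sets and the brighter was used.

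Group means over all 12 arrays were fitted with limma 3.58.1 (R 4.3.3) and moderated variances. Benjamini-Hochberg adjustment covered the 13737 genes whose signal exceeded the array median on 3 or more arrays, and a gene was called at an adjusted p under 0.05. Intervals are 95% limma intervals, and errors after ± are standard errors unless named SD. With 3 arrays per group, their number limits the precision. The fit was also run on simulated independent normal values with known changes, without mouse pairs or a deviating array. That run checks the code and not the calls made here.

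The collagen genes, their classes and the 7 related lists were chosen with earlier results of these data known. Values on every array are given for a fixed set of 13 collagen genes and for the 2 with the smallest p in each comparison. Of each related list, the called genes or the gene with the smallest unadjusted p are named, and 8 genes whatever their result. Listed genes without a probe set were not analysed here.

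Arrays from 1 mouse carry the same mouse number in the labels, which pairs them. As a check, deviations from group means were correlated within each mouse, giving 0.00733, 0.0864 and 0.130 for DKO and -0.0623, 0.0566 and 0.0109 for WT. Alternatives were other filters and scalings, trend and robust variances, weights per array, the mouse as a fixed or a random block, a fit to the compared arrays alone, a minimum change, and each array left out.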

Additional observations from a re-analysis of the deposited data

Results flagged for a closer look

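For 4 collagen genes the Iso difference ran one way in all 3 WT mice and the opposite way in all 3 DKO mice. The difference itself was tested with the interaction of limma, and it passed for none of them after Benjamini-Hochberg adjustment over all genes tested. The Iso effect in DKO minus that in WT was -0.50 for Col8a1 (adjusted p = 0.392) and 0.44 for Col1a2 (adjusted p = 0.444). It was 0.35 for Col4a2 (adjusted p = 0.524) and -0.20 for Col6a1 (adjusted p = 0.730). Without untreated DKO array 3 the values were -0.52, 0.39, 0.35 and -0.14, in the same order. The Col6a1 value was -0.10 without untreated WT array 2.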

How the results depend on the processing

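The number of collagen genes called was 0 in all 7 comparisons under every alternative run, 21 to 23 per comparison, including each array left out in turn (0 to 0). The mouse as a fixed block could not be fitted for the genotype comparisons, nor only the arrays compared for the interaction and the averaged effects. With the mouse as a fixed replicate block the Col8a1 interaction had an adjusted p of 0.408, and the lowest adjusted p of any collagen gene was 0.2496. With a random replicate block the lowest was 0.197. Of the calls of related genes, the fixed block could test only that of Gp6 for Iso in DKO, which was lost (limma adjusted p = 0.0678). The calls of P3h2, Thbs1 and Timp1 are genotype comparisons and could not be tested with it. With the random block the calls of Gp6, P3h2, Thbs1 and Timp1 were all kept (limma adjusted p 0.0197 to 0.0468).

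The differences with the smallest p-values, those with groups that did not overlap and the 5 calls of related genes kept their sign under each alternative run, whereas Col15a1 for DKO without Iso went from 0.22 to -0.01 without untreated DKO array 3, and Col4a1 turned sign without Iso-treated WT array 1 for Iso in WT and DKO with Iso. The median collagen difference changed sign in all 7 comparisons under some alternative. That for DKO without Iso went from -0.01 to between -0.07 and 0.06, and that of the interaction from -0.05 to between -0.09 and 0.03. The calls of P3h2, Gp6, Thbs1 and Timp1 were lost in 6 to 11 of 21 to 23 alternatives, each of them when a log2 change of at least 0.5 was tested for. P3h2 with Iso and Timp1 were also lost with no filter (adjusted p 0.0594 and 0.0602), and Gp6 with only the arrays compared (0.260). Leaving out 1 array gave 6 related genes a call they lacked, and no collagen gene. Of these, only Lama4 and Tgfb1 had no call with all arrays. Gp6, P3h2, Thbs1 and Timp1 gained a call in other comparisons than before.

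Counts over all genes moved more. Against 3 calls for Iso in WT the alternatives gave 2 to 8, against 7 for Iso in DKO 0 to 1109, and against 2 for the interaction 2 to 51. Against 28 and 42 for DKO without and with Iso they gave 2 to 698 and 9 to 164, and against 17 and 75 for the averaged effects 1 to 581 and 12 to 475. The highest counts came with array weights except for Iso in WT, where leaving out untreated DKO array 3 gave 8. The cause was not tested. Many collagen probe sets lay close to the array median, where the signal over background is small.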
